A study of Mus musculus with 9 samples.

Results

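Cryab, Hspb1, Hspb2, Hspb3, Hspb6, Hspb7 and Hspb8 encode small heat shock proteins, and their rows were taken from the 20634 measured genes by exact gene symbol. All 7 genes were found. All 7 also passed the low-count filter that left 15549 genes for testing. The genes were chosen as a family, with earlier results of these data known.

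Small heat shock proteins share a conserved alpha-crystallin domain and assemble into oligomers that hold unfolding proteins in a soluble state without using ATP. Refolding or disposal is then carried out by the Hsp70 system or by autophagy. Heart and skeletal muscle express many members of the family, where they associate with desmin, titin, filamin and actin, and inherited changes in several of them cause myopathy or cardiomyopathy.

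RNA was sequenced from the left ventricle of C57BL/6 mice aged 6 months, with 2 to 3 libraries in each of 4 groups. The wt-veh group (2 libraries) was wild type and drank plain water, and the wt-ife group (2 libraries) was wild type and received ifetroban, an antagonist of the TP receptor for thromboxane and related prostanoids, at 25 mg/kg/day in the water. The dSG-veh group (2 libraries) and the dSG-ife group (3 libraries) lacked delta-sarcoglycan, a membrane protein of the dystrophin-associated complex encoded by Sgcd, and received plain water and ifetroban respectively. Treatment began at weaning, running wheels were supplied at intervals in every group, controls included, and hearts were perfused with PBS. The labels do not say that the libraries of a group came from separate animals, so p-values measure only the spread between libraries.

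Depth was 21510263 to 30182955 counts per library, and each member had from 143 (Hspb3) to 81495 (Hspb7) counts in a library. Sgcd, the targeted gene, was at 7.30 to 13.3 CPM (the count scaled to library size) in the 5 knockout libraries, at 20.9 to 23.7 CPM in 3 wild-type libraries and at 8.36 CPM in the library labelled wt-veh 1, which lay among the knockouts. The library dSG-ife 1 is an ifetroban sample by title and a vehicle sample by its treatment label, and it was grouped by title. The libraries also fell into sets by the slope of gene levels on transcript length: short transcripts were relatively higher in the library labelled wt-veh 1, in both dSG-veh libraries and in dSG-ife 1 (Spearman rho across genes from -0.52 to -0.40), and long ones in the other 5 (0.38 to 0.43). No dSG-veh library was in the positive-slope set and no wt-ife library in the negative-slope set, so for these groups slope and condition cannot be told apart. Summed cardiomyocyte markers were 50154 to 54076 CPM in wild type and 41498 to 48202.5 CPM in knockout. Fibroblast markers were 642 to 717 and 779 to 1149 CPM, and macrophage markers 116 to 158 and 206 to 241 CPM. None of these sums overlapped between genotypes. The largest part of the cardiomyocyte sum was Myh6, which did overlap (14397.5 to 23121 CPM in wild type, 12230.5 to 20919 CPM in knockout). Of the 8 cardiomyocyte markers 0 passed an edgeR adjusted p of 0.05 for genotype over both treatments. Their log2 differences ran from -0.50 (Ryr2) to 0.0097 (Tnnt2), with a median of -0.12. Markers of fast skeletal muscle were near 0 in 8 libraries and higher in dSG-ife 3, where Myh1 was at 8.15 CPM (at most 0.167 elsewhere), Tnnt3 at 4.80 (0.374), Mylpf at 4.32 (0.456), Myh4 at 3.51 (0.0759) and Actn3 at 1.65 (0.162). Myh2 was at only 0.283 CPM there (0.121). The other listed skeletal muscle markers were not highest in dSG-ife 3: Acta1 was at 669 CPM (161 to 1104 elsewhere) and Ckm at 1555 (1412 to 2158.5). The summed list was 2246 CPM there, below 3249 CPM in the library labelled wt-veh 1. Summed atrial markers, nearly all from Nppa, and summed adipocyte markers (at most 2.43 CPM) did not overlap between genotypes either, with knockout higher. The atrial sum thus followed Nppa alone: Myl4 overlapped (0.564 to 1.33 CPM in wild type, 0.721 to 1.59 CPM in knockout), and Myl7 was at most 0.222 CPM. For genotype over both treatments, Col1a1, Col1a2, Adgre1, Csf1r, Cd68, C1qa, C1qb, Cfd and Nppa passed an edgeR adjusted p of 0.05. All were higher in knockout, and 2.33% of all tested genes passed in that comparison. Of the 6 macrophage markers 5 passed, and the remaining one, Cd163, had a log2 difference of -0.031. Of the 6 fibroblast markers 2 passed and all 6 had differences above 0, but Pdgfra, Dcn, Lum and Tcf21 overlapped between genotypes in CPM. In bulk tissue fewer cells of a type and less RNA per cell cannot be told apart. The part of these marker shifts in the member values was not tested.

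The family was abundant and unevenly shared among its members. Together the 7 genes held 0.449% (wt-veh 2) to 0.647% (dSG-ife 1) of the counts of a library, and the ranges of the genotypes overlapped. Per kilobase of the longest annotated transcript, Cryab led with a mean of 1154 ± 204 CPM (SD, n = 9), followed by Hspb7 with 990 ± 147. Hspb6 stood at 440 ± 72.5 CPM per kilobase, Hspb8 at 269 ± 32.0, Hspb1 at 188 ± 72.7, Hspb2 at 72.5 ± 12.3 and Hspb3 at 9.25 ± 1.505. These per-kilobase means put Cryab at rank 37, Hspb7 at 43 and Hspb3 at 4336 of 14949 genes with a length. Cryab and Hspb7 were not separated beyond their spread. With the length of all GENCODE exons combined Cryab (872) fell below Hspb7 (990). For Cryab that length takes in exon bases from position 50751325, before the deposited gene start at 50752758. The reversal was therefore not shown for the deposited gene model. Hspb8 and Hspb1 overlapped across libraries, since Hspb1 reached 365 CPM per kilobase in dSG-ife 1 and was at most 204 elsewhere, against 217 to 303 for Hspb8. The other neighbours in this order did not overlap in any library. Hspb1 also had the widest range, with a highest-to-lowest ratio of 2.98 over the 9 libraries, against 1.40 to 1.66 for the others. That ratio rested on dSG-ife 1 (339 CPM), since the other libraries ran from 114 to 190 CPM.

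**Figure D1:**
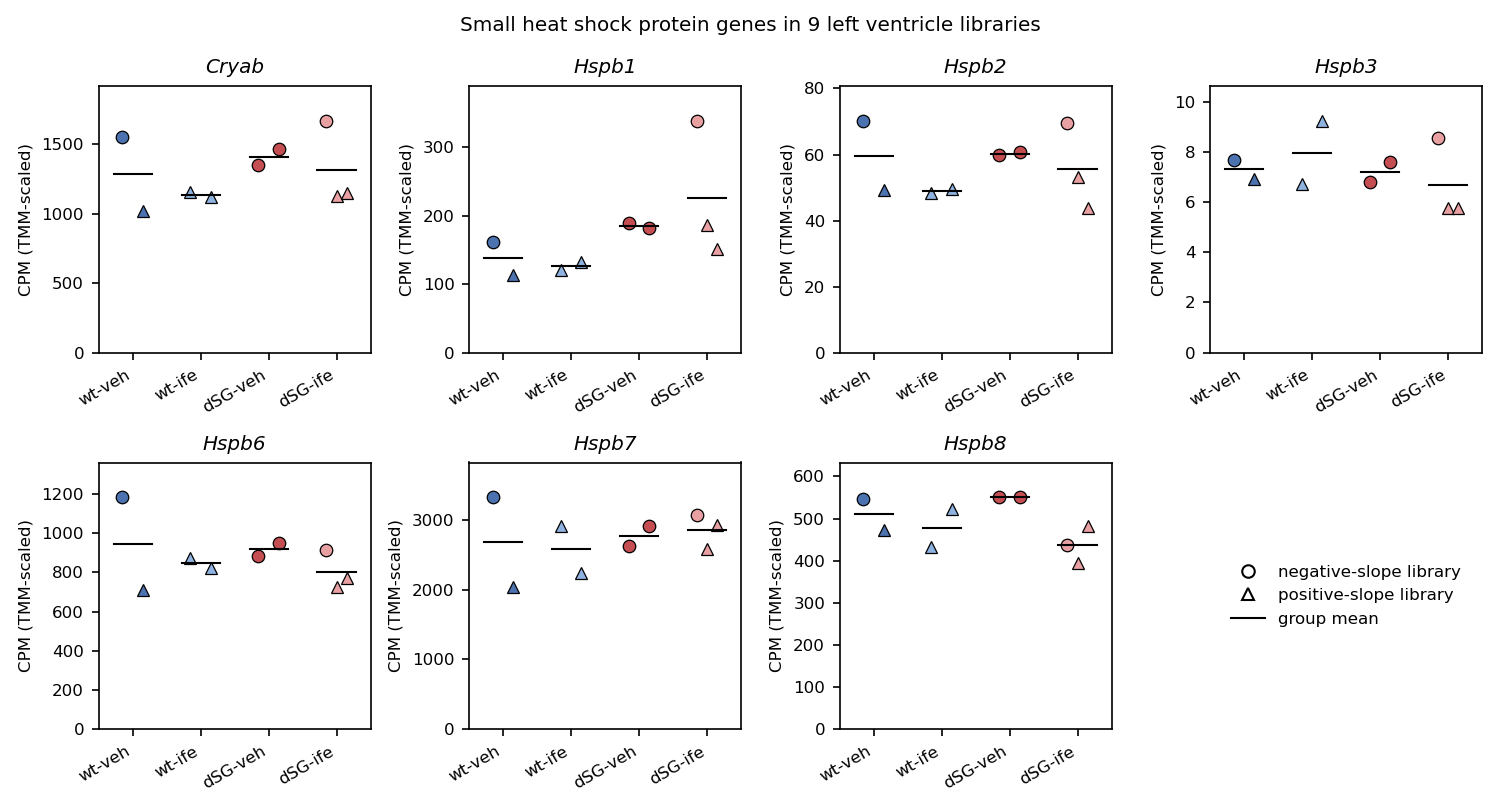
CPM scaled by TMM factors (vertical axis, from 0) of the 7 genes in each library, by group (horizontal axis); circles are libraries of the negative-slope set, triangles those of the positive-slope set, and bars are group means. Hspb1 in dSG-ife 1, at 339 CPM, stands above the 114 to 190 CPM of the other libraries, while the groups of the other genes mostly overlap.

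Cryab (chr9:50752758-50756633, plus strand, mm10) encodes alphaB-crystallin, a chaperone of desmin and titin. It was at 1551 and 1017 CPM in wt-veh, 1156 and 1117 in wt-ife, 1351 and 1467 in dSG-veh, and 1669, 1130 and 1147 in dSG-ife. The high values were those of the 4 negative-slope libraries, all at or above 1351 CPM, and the positive-slope libraries were all at or below 1156 CPM, whatever the genotype or treatment. The log2 difference of dSG-veh from wt-veh was 0.13 ± 0.24 (SE; 95% interval -0.39 to 0.66; edgeR quasi-likelihood adjusted p = 0.935), and that of dSG-ife from wt-ife was 0.21 ± 0.22 (-0.27 to 0.69; adjusted p = 0.809). With the slope set as a term in the model these became -0.12 and -0.0055.

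Hspb1 (chr5:135887919-135889563, plus strand) encodes the small heat shock protein known in mice as Hsp25, which binds actin and is phosphorylated under stress. Its values were 162 and 114 CPM in wt-veh, 120 and 133 in wt-ife, 190 and 182 in dSG-veh, and 339, 186 and 151 in dSG-ife. Under each treatment every knockout library lay above every wild-type library, as for 18.3% of all tested genes under vehicle and 14% under ifetroban, but over both treatments the ranges met, because dSG-ife 3 (151) lay below the library labelled wt-veh 1 (162). Within each slope set the genotypes did not overlap: 182 to 339 CPM in knockout against 162 in the negative set, and 151 and 186 CPM in knockout against 114 to 133 in the positive set. Hspb1 was the sole member with this pattern, which 8.72% of all tested genes showed.

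The log2 difference of Hspb1 between dSG-ife and wt-ife was 0.83 ± 0.31 (95% interval 0.14 to 1.53, 1.78-fold), with an unadjusted p of 0.0231 and an adjusted p of 0.420 in edgeR. Between dSG-veh and wt-veh it was 0.43 ± 0.33 (-0.31 to 1.17; edgeR adjusted p = 0.836), and its size moved widely: it was 0.71 without the library labelled wt-veh 1, 0.19 without wt-veh 2 and 0.042 with the slope set as a term. With dSG-ife 1 placed by its treatment label, it was 0.78 under vehicle and 0.42 under ifetroban. Over both treatments the knockout libraries averaged 210 ± 74.0 CPM (SD, n = 5) and the wild-type ones 132 ± 21.6 (n = 4), a log2 difference of 0.65 ± 0.22 (0.16 to 1.14; edgeR unadjusted p = 0.0147, adjusted p = 0.181). Hspb1 thus did not pass the threshold of an adjusted p of 0.05. The library dSG-ife 1 carried much of the size: without it the difference under ifetroban was 0.42 (adjusted p = 0.656) and that over both treatments 0.42 (adjusted p = 0.109). Without the library labelled wt-veh 1 the latter was 0.81 (adjusted p = 0.0942), and with the slope set as a term it was 0.30 (adjusted p = 0.290). Without dSG-ife 3, where some fast skeletal muscle markers were higher, it was 0.73.

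The counts of Hspb1 are uncertain because the genome holds a near-identical processed copy. Hsp25-ps1 (chr13:45078498-45079127, minus strand) matched the Hspb1 transcript over 630 bases that span its whole coding sequence, with 4 differences (C146T, G699A, T701C and T749C, the base of Hspb1 first, counted from the 5′ end of its 903-base transcript) and 99.4% identity. The stretch of 90 coding bases with 3 of the differences, in capitals, is shown because reads that lie within the matching bases separate the copies only where these differ (GENCODE, mm10):
Hspb1: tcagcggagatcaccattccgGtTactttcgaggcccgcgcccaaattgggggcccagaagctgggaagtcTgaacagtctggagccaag
Hsp25-ps1: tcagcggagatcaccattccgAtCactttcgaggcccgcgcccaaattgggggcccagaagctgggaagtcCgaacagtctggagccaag

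The deposited counts put 31.4% to 34.0% of the reads of this pair on Hsp25-ps1 in every library. Its CPM ran from 56.5 (wt-veh 2) to 175 (dSG-ife 1), and of the genes compared it was the one most like Hspb1 over the 9 libraries (Pearson r of log2 CPM 0.99, a description). Gm9817, a gene that overlaps this copy on the other strand, had 8 to 35 counts. With the 3 summed, an alternative chosen after the copies were seen, the values were 246 and 171 CPM in wt-veh, 179 and 200 in wt-ife, 287 and 273 in dSG-veh, and 516, 272 and 227 in dSG-ife. The order of the libraries' groups stayed as for Hspb1 alone, and the log2 difference over both treatments was 0.65 with an edgeR adjusted p of 0.193.

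**Figure D2:**
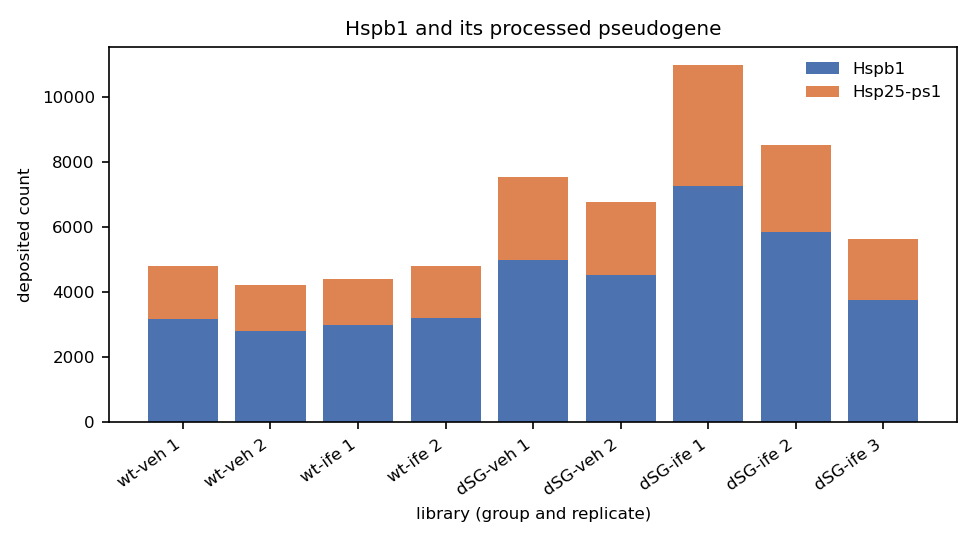
Deposited counts (vertical axis) of Hspb1 and of its processed copy Hsp25-ps1, stacked, in each library (horizontal axis). The copy holds 31.4% to 34.0% of each bar, so both parts rise together in dSG-ife 1.

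Hspb6 (chr7:30552178-30555443, plus strand) encodes a muscle small heat shock protein that is phosphorylated by cyclic nucleotide-dependent kinases. It was at 1183 and 711 CPM in wt-veh, 875 and 820 in wt-ife, 886 and 952 in dSG-veh, and 914, 726 and 772 in dSG-ife. The widest gap was inside wt-veh. The negative-slope libraries, at 886 CPM or more, again lay above the positive-slope ones, at 875 CPM or less. The genotype difference over both treatments was -0.062 ± 0.14 on the log2 scale (95% interval -0.37 to 0.24; edgeR adjusted p = 0.864). The annotated gene overlaps Proser3 over 119 bases on the opposite strand, and the counting rule is not given, so a share of these reads could belong to that gene.

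The balance between members separated the genotypes more cleanly than the levels did, in 2 ratios singled out after their values were seen. The ratio of Cryab to Hspb6 in CPM was 1.31 and 1.43 in wt-veh, 1.32 and 1.36 in wt-ife, 1.52 and 1.54 in dSG-veh, and 1.83, 1.55 and 1.49 in dSG-ife. Hspb1 as a percentage of Cryab was 10.5 and 11.2 in wt-veh, 10.4 and 11.9 in wt-ife, 14.0 and 12.4 in dSG-veh, and 20.3, 16.5 and 13.2 in dSG-ife. In both, every knockout library lay beyond every wild-type library, across both slope sets. Of all tested genes, 1.99% had a ratio to Cryab that was higher in every knockout library, as Hspb1 did, and 1.96% had one that was lower, as Hspb6 did. The other members did neither, and no test was made of these ratios.

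Hspb2 (chr9:50751072-50752354, minus strand) encodes a protein that binds myotonic dystrophy protein kinase and forms complexes with the product of Hspb3 in muscle. It lies 403 bases from Cryab in a divergent pair, the genes being transcribed away from each other. Hspb2 was at 70.2 and 49.2 CPM in wt-veh, 48.3 and 49.5 in wt-ife, 59.7 and 60.7 in dSG-veh, and 69.5, 53.3 and 43.8 in dSG-ife. As for its neighbour, the 4 negative-slope libraries (59.7 CPM or more) lay above the 5 positive-slope ones (53.3 CPM or less). The log2 difference between genotypes over both treatments was 0.11 ± 0.14 (-0.21 to 0.42; edgeR adjusted p = 0.762). The ratio of Cryab to Hspb2 in CPM stayed between 20.7 and 26.2 in the 9 libraries. Their log2 CPM correlated at a Pearson r of 0.91 over these libraries, and at 0.45 after each slope set was centred on its own mean. In GENCODE a Cryab transcript runs over Hspb2, sharing 252 bases with it. The deposited Cryab gene starts at 50752758, does not overlap Hspb2 and so leaves out these bases. All deposited counts of both genes were whole. The counting rule is not given, and the assignment of reads from the shared bases was not tested.

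Hspb3 (chr13:113662896-113663676, minus strand) encodes the muscle partner of Hspb2, and was the least abundant member. It was at 7.69 and 6.93 CPM in wt-veh, 6.70 and 9.24 in wt-ife, 6.79 and 7.59 in dSG-veh, and 8.57, 5.75 and 5.77 in dSG-ife. No group stood apart. The largest of its differences by size was that of dSG-ife from wt-ife, -0.26 ± 0.22 on the log2 scale (-0.75 to 0.24; edgeR adjusted p = 0.778). It was -0.47 without wt-ife 1, -0.47 without dSG-ife 1, -0.14 without dSG-ife 2, -0.15 without dSG-ife 3 and -0.0076 without wt-ife 2.

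Hspb7 (chr4:141420779-141425311, plus strand) encodes the cardiovascular small heat shock protein, which binds filamin C. It supplied 45.8% to 52.9% of the family's CPM. Its values were 3331 and 2044 CPM in wt-veh, 2923 and 2241 in wt-ife, 2636 and 2913 in dSG-veh, and 3078, 2590 and 2927 in dSG-ife. The wild-type libraries held both the highest and the lowest value, and every group overlapped every other. The genotype difference over both treatments was 0.10 ± 0.14 (-0.22 to 0.42; edgeR adjusted p = 0.769).

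Hspb8 (chr5:116408491-116422864, minus strand) encodes the partner of the co-chaperone BAG3 in chaperone-assisted selective autophagy, which clears damaged filamin. It was at 547 and 473 CPM in wt-veh, 432 and 522 in wt-ife, 550.3 and 550.5 in dSG-veh, and 438, 394 and 483 in dSG-ife. All 3 dSG-ife libraries lay below both dSG-veh libraries, which 9.76% of all tested genes also did. The log2 difference of ifetroban in knockout was -0.33 ± 0.14 (95% interval -0.64 to -0.018; edgeR unadjusted p = 0.0403, adjusted p = 0.862), so it did not pass. It kept its sign in all 20 alternatives, from -0.40 to -0.23, and was -0.33 in the negative-slope libraries alone, where dSG-ife 1 is the sole treated library. In wild type the difference was -0.10 ± 0.15 (-0.44 to 0.25), and the interaction of genotype and treatment was -0.23 ± 0.21 (edgeR adjusted p = 1.000), so no difference of response between the genotypes was shown.

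Across the comparisons, none of the 7 members passed the threshold of an adjusted p of 0.05. For dSG-veh against wt-veh 0 of 7 passed in edgeR, against 0.0515% of all tested genes, and 0 of 7 had an unadjusted p under 0.05, against 7.9%. In that comparison Hspb1 and Hspb8 were higher in both dSG-veh libraries than in both wt-veh ones, as 18.3% of all genes were, and no member was lower in both (17.6%). For dSG-ife against wt-ife 0 of 7 passed (background 0.0386%), 1 of 7 (Hspb1) had an unadjusted p under 0.05 (9.36%), and Hspb1 was the sole member without overlap (14% of genes higher and 15% lower). For ifetroban in knockout 0 of 7 passed (0%) and 1 of 7 (Hspb8) had an unadjusted p under 0.05 (3.96%); no member was higher in all dSG-ife libraries (10.4%). Ifetroban in wild type and the interaction gave 0 of 7 by the adjusted p (0% in both) and by the unadjusted p (2.25% and 1.92%). All 7 members overlapped between wt-ife and wt-veh, where 17.6% of genes were higher in both wt-ife libraries and 13.8% lower. For genotype over both treatments 0 of 7 passed, against 2.33%, and 1 of 7 (Hspb1) had an unadjusted p under 0.05, against 16.1%. The DESeq2 Wald test gave the same counts for the 7 genes in all 6 comparisons, with a smallest adjusted p of 0.0690 for Hspb1 in genotype over both treatments. These comparisons share groups: wt-veh serves as the control of 2 of them and dSG-veh as the control of another.

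**Figure D3:**
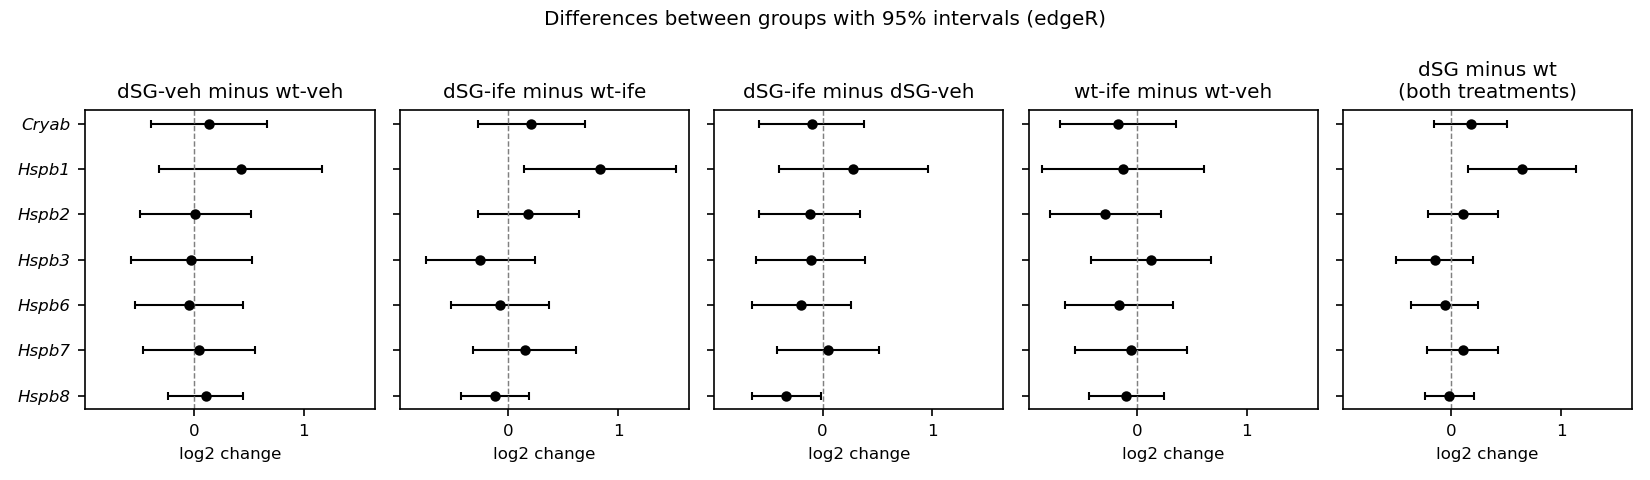
Log2 difference (horizontal axis) of each gene (vertical axis) in 5 comparisons, as points with 95% intervals from edgeR; the dashed line is no difference. Besides Hspb1 under ifetroban and over both treatments and Hspb8 for ifetroban in knockout, each interval includes 0.

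What the members shared beyond their family was short length and the split by slope. Their longest transcripts were 773 (Hspb2) to 2769 (Hspb7) bases, and 64.7% to 98.2% of the 13051 protein-coding genes with a length were longer. All 7 were lower in the positive-slope set, by log2 differences from -0.59 (Hspb1) to -0.17 (Hspb3). For Hspb2 (-0.41) and Hspb8 (-0.18) the value lay near the median of genes of like length (-0.43 and -0.21). Hspb1 (-0.59, median -0.43), Cryab (-0.44, -0.33), Hspb6 (-0.33, -0.21) and Hspb7 (-0.24, -0.055) were lower than that median, and Hspb3 (-0.17, -0.43) was higher. For Cryab, Hspb2 and Hspb6 every negative-slope library was above every positive-slope one in CPM, as for 12.1% of all tested genes, and the sets were themselves defined by a slope that raises short genes in the former. Between the genotypes over both treatments all 7 members overlapped (background 4.62% higher and 2.38% lower).

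**Figure D4:**
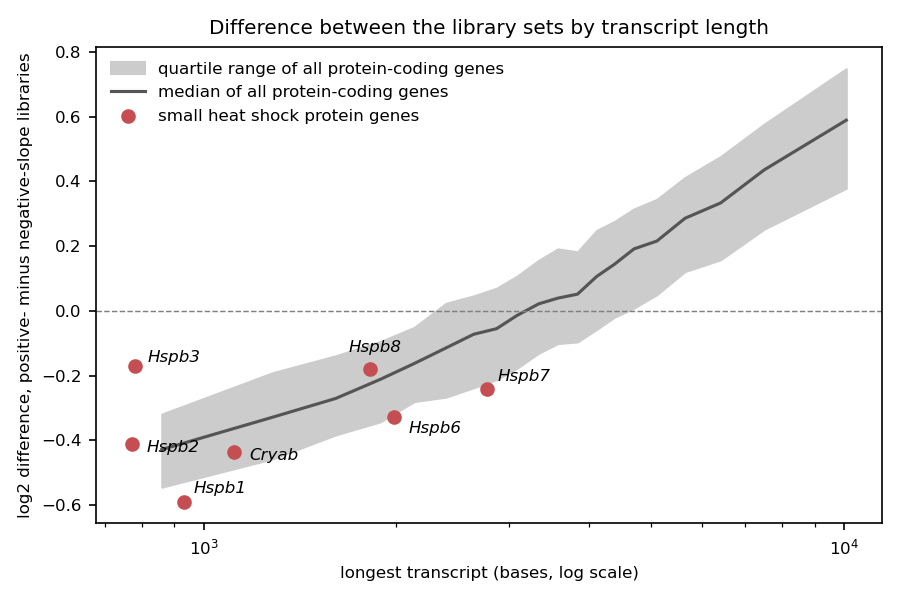
Mean log2 CPM of the 5 positive-slope minus the 4 negative-slope libraries (vertical axis) against the longest transcript in bases (horizontal log axis) for the 7 genes, with the median and quartile range of all protein-coding genes in length bins. The 7 genes lie between -0.59 and -0.17, at lengths where the median of all genes is also below 0.

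The genes most like each member over the 9 libraries were taken from 9722 with a mean of at least 5 CPM. By Pearson r of log2 CPM they were Ost4 (0.99), Psmc6 and Eif5a for Cryab, Ube2j2 (0.99), Rpl13 and Snrpd2 for Hspb2, and Rpf1 (0.98), Ubl7 and Mlf1 for Hspb6. For Hspb1 they were Hsp25-ps1, Tpd52 (0.98) and Gpatch4 (0.97). The likeness was lower for Hspb8 with Pgap2 (0.95), Mgmt and Rom1, for Hspb7 with Ramp2 (0.94), Cebpb and Tmem120a, and for Hspb3 with Chchd5 (0.88), Tomm40l and Chn1. Among the members themselves, Hspb1 and Hspb8 had a Pearson r of -0.12 over the 9 libraries and -0.75 after centring each slope set. These are descriptions over libraries that share their slope set, group and depth.

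Heat shock factor, the transcription factor of the stress response, binds inverted repeats of a short element, written here as GAANNTTC. RefSeq (GRCm38.p6) windows from 250 bases before to 50 after the start were available for 5 of the 7 genes (6 windows). GAANNTTC, which reads the same on both strands, was found in 4 of these 5 genes. The background is counted by window and not by gene: 7.86% of all 32851 promoter windows held it. Hspb6 has a pair of windows, and only the later one held it. The windows are shown because these genes differ in how far the element lies from the start, with the element in capitals, 5′ to 3′ on the gene's strand:
Hspb1 chr5:135887766-135887865: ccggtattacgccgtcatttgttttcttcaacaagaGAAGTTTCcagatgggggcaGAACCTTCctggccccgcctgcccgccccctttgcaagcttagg
Hspb3 chr13:113663857-113663926: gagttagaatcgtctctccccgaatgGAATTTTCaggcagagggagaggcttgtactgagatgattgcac
Hspb6 chr7:30553145-30553224: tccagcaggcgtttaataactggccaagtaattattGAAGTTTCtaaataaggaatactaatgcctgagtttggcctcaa
Hspb8 chr5:116422847-116422864: gaGAAGTTTCtaggctcg

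Hspb1 alone held 2 matches, starting 117 and 97 bases before the start. The match began 120 bases before the start in Hspb6, 224 before it in Hspb3 and at base 3 of the transcript in Hspb8, and none was in the Hspb7 window. RefSeq gives Hspb6 a pair of starts, 362 and 1123 bases inside the gene as deposited, and its match lies before the second; the starts of the other 4 genes equal the deposited ones. The opposite arrangement, TTCNNGAA, was in none of the 6 windows (8.52% of all promoters). TATAAA was found in the Hspb3 window and the later Hspb6 window (13.6% of all windows). The MEF2 motif of muscle genes was in the Hspb3 window (3.19%), and the CArG motif of serum response factor in none (1.63%). The TATAAA of Hspb3 lies inside its MEF2 match, so these share the same bases. These matches describe the letters of the windows and not binding.

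Genes that heat shock factor is known to induce differed in level. Hspa1a, an inducible Hsp70, was at 7.85 and 3.604 CPM in wt-veh, 3.03 and 8.12 in wt-ife, 4.86 and 4.18 in dSG-veh, and 5.76, 6.86 and 4.40 in dSG-ife. Its partner Dnajb1 was at 13.0 to 25.4 CPM. In dSG-ife 1, where Hspb1 was highest, Hspa1a (5.76 CPM) and Dnajb1 (16.2 CPM) lay inside the range of the other libraries, while Hsp90aa1, the stress-responsive Hsp90, was at 168 CPM against 66.9 to 143 CPM elsewhere. Of the 21 genes of Hsp90, the chaperonin and their co-chaperones, 8 had their highest value in dSG-ife 1 (Cct2, Cct3, Cct5 and Cct8 among them). So did 13.6% of all tested genes, 1 of 15 in the Hsp70 system and 1 of 14 Hsp40 co-chaperones. This was not particular to dSG-ife 1, because another 8 of the 21 were highest in the library labelled wt-veh 1. That library held the highest value of 19% of all tested genes, 0 of 15 in the Hsp70 system and 5 of 14 Hsp40 co-chaperones. The factors Hsf1, Hsf2 and Hsf4 were all tested, and 0 of 3 passed in any comparison; the smallest p was that of Hsf2 for genotype under vehicle (-0.35 ± 0.16 on the log2 scale, edgeR adjusted p = 0.642).

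No gene of the other chaperone lists passed in any of the 6 comparisons either. Over both treatments the median log2 difference of dSG from wt was -0.024 for the 15 genes of the Hsp70 system, -0.017 for 14 Hsp40 co-chaperones and 0.082 for 21 genes of Hsp90, the chaperonin and their co-chaperones, against -0.016 for all 15549 tested genes and 0.10 for the 7 small heat shock proteins. Within the Hsp70 system Hspa12a had the smallest p (-0.60 ± 0.17; edgeR adjusted p = 0.116), followed by Hspa9, the mitochondrial Hsp70 (-0.22 ± 0.071; adjusted p = 0.160). Fkbp4, an Hsp90 co-chaperone, came nearest to the threshold, with 299 to 356 CPM in wild type, 242 to 272 CPM in knockout and a log2 difference of -0.34 ± 0.080 (edgeR adjusted p = 0.0539). Within that list Hsp90aa1 was next (0.58 ± 0.20; edgeR adjusted p = 0.186). Among Hsp40 genes Dnajb11 (0.29 ± 0.13) and Dnaja3 (-0.15 ± 0.077) had the smallest p, with edgeR adjusted p of 0.296 and 0.360. Hspb11, which carries the family symbol and encodes an intraflagellar transport protein, was at 0.985 to 2.33 CPM and did not pass.

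**Figure D5:**
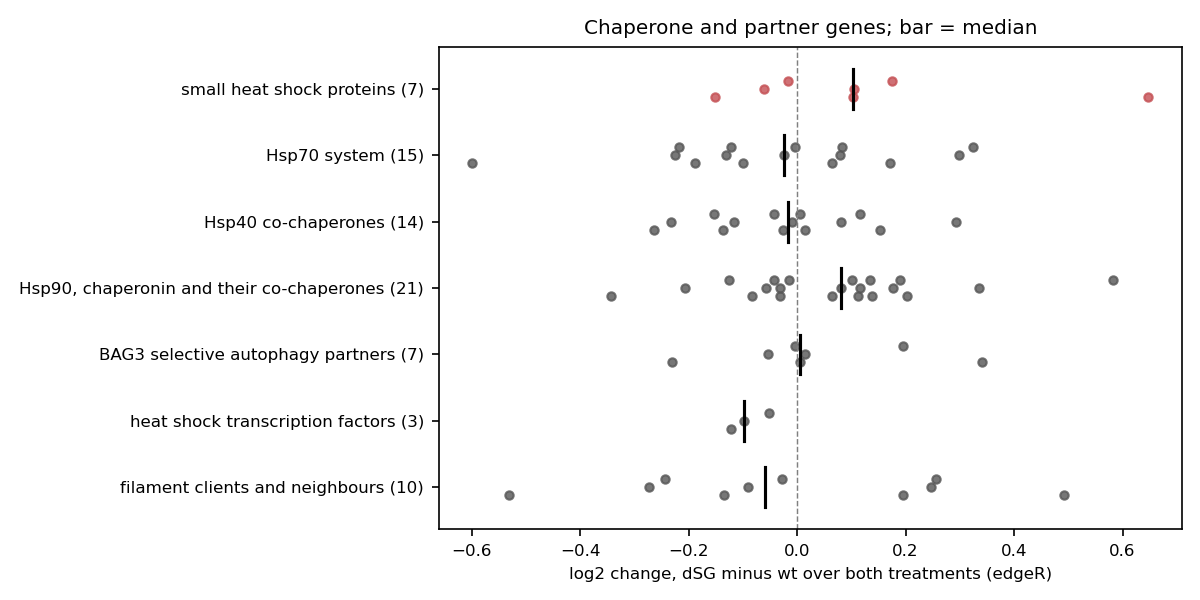
Log2 difference of dSG from wt over both treatments (horizontal axis, edgeR) for every tested gene of each list (vertical axis, number of genes in brackets), with black bars at the medians. Hspb1 (0.65) is the rightmost of the small heat shock proteins, and the medians of the lists lie between -0.097 and 0.10.

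No gene encoding a partner of HSPB8 in selective autophagy passed the threshold. Bag3, the co-chaperone that HSPB8 binds, was at 237 to 289 CPM in the 9 libraries with a genotype difference of -0.054 ± 0.084 (edgeR adjusted p = 0.791), and Stub1, the ubiquitin ligase of the complex, at no more than 95.7 CPM with 0.0060 ± 0.090 (adjusted p = 0.983). Of this list of 7 genes (median 0.0060 over both treatments), 0 passed. Tgm2, a transglutaminase, had the smallest p (0.34 ± 0.084; edgeR adjusted p = 0.0657), and Synpo2 the next (-0.23 ± 0.10; adjusted p = 0.310).

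Filamin C, a client of the HSPB7 and HSPB8 proteins and a cross-linker of actin at the Z-disc, is encoded by Flnc. It was at 301 and 388 CPM in wt-veh, 444 and 426 in wt-ife, 353 and 339 in dSG-veh, and 474, 626 and 566 in dSG-ife. All 3 dSG-ife libraries lay above the other 6. Against the dSG-veh libraries alone 10.4% of all tested genes did so, and the share against all 6 was not counted. The log2 difference of ifetroban in knockout was 0.68 ± 0.16 (edgeR unadjusted p = 0.00169, adjusted p = 0.862), which did not pass, while Hspb7 was at 0.046 ± 0.21 and Hspb8 at -0.33 ± 0.14 in the same comparison.

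Of the 10 filament genes that these chaperones attend, Flnc included, 0 passed in any comparison, and the median genotype difference over both treatments was -0.059. Vim, the intermediate filament of fibroblasts and endothelium, had the smallest p (0.49 ± 0.15; edgeR adjusted p = 0.123), and Lmna, the nuclear lamin, the next (0.26 ± 0.085; adjusted p = 0.165). Vim stood beside fibroblast markers that were also higher in knockout, and the part of these cells in it was not tested. Des, the client filament of alphaB-crystallin, was at 2271 and 1681 CPM in wt-veh, 1715 and 1730 in wt-ife, 2004 and 2260 in dSG-veh, and 2367, 2096 and 2181 in dSG-ife. Under ifetroban every knockout library was above every wild-type one (14% of all genes), at 0.36 ± 0.15 (edgeR adjusted p = 0.489), beside 0.21 ± 0.22 for Cryab.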

How the data were processed

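Left ventricle RNA was measured in 9 libraries, grouped by title into 4 groups. The deposited values are expected counts per gene, 28.2% of them not whole. Per the submitters' processing notes, bcl2fastq, STAR and Partek were used with the build mm10. Each version, the strandedness and the counting rule were not given in the sources used here, and shared or antisense reads cannot be assigned. Gene positions come from the deposited annotation, less 1 at the end, and then equal GENCODE M21 for 5 of the 7 genes (all but Cryab and Hspb2).

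Expected counts were rounded, genes filtered with filterByExpr (minimum count 10) and libraries scaled with TMM. The quasi-likelihood test of edgeR 4.0.16 (R 4.3.3, robust) was run on all 9 libraries with 4 group means, and with an additive model for genotype over both treatments. P-values were adjusted by Benjamini-Hochberg over 15549 genes at a threshold of 0.05. SE is the log2 difference over the square root of F, and CPM are TMM-scaled. Log2 CPM used a prior count of 2. A gene's length is its longest transcript of any kind in GENCODE M21. The Hspb1 copies were found with BLAST+ 2.17.0. The test was run on simulated counts first.

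The members and lists were chosen with earlier results of these data known. Named genes are all 7 members, the 3 genes most like each member, and Sgcd as the targeted gene. From each list other than the cell type markers, genes past the threshold are named, or else those with the smallest p. From the marker lists, genes past the threshold are named. Myh6, Ryr2, Tnnt2, Hspa1a, Dnajb1, Bag3, Stub1, Des and Hsp25-ps1 were named outside these rules, after their values were seen. The same holds for Myl4, Myl7, Cd163, Pdgfra, Dcn, Lum and Tcf21. So were the Cct genes and the skeletal muscle markers. Alternatives were DESeq2 1.42.0 (size factors, Wald test), limma-voom 3.58.1, other filters, fewer groups, a block, the other label of dSG-ife 1, the slope set as a term and each library left out. The libraries of 1 slope set alone and the summed Hspb1 copies were chosen after seeing the data. The libraries of a group differed by more than counting noise (chi-square per degree of freedom 9.23 to 53.0). Hspb9, Cryaa and Odf1 were not analysed here.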

Additional observations from a re-analysis of the deposited data

How the results depend on the processing

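Each group had 2 or 3 libraries, and the slope sets were spread unevenly over the groups. The part of read depth in the precision was not tested. The count of members past the threshold was 0 in all 6 comparisons and under every alternative run, except for ifetroban in knockout with the negative-slope libraries alone, where it was 1 (Hspb1, log2 difference 0.87, edgeR adjusted p = 0.0287, 1 dSG-ife against 2 dSG-veh libraries, the lone one assumed to vary like the others). Of the values of single members under an alternative, 725 kept their direction and side of the threshold and 86 changed sign. The 363 genes called over both treatments became 896 with the DESeq2 Wald test, 550 with the block and 51 to 475 with a library left out, the lowest without wt-ife 2.

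The values below are log2 differences that changed sign, and the cause was not tested. With the slope set as a term, under vehicle Cryab was -0.12, Hspb2 -0.22 and Hspb7 -0.12. In that model, under ifetroban Cryab was -0.0055 and Hspb2 -0.0080, and over both treatments Cryab was -0.055, Hspb2 -0.10 and Hspb7 -0.039. Ifetroban in knockout then gave 0.26 for Cryab, 0.21 for Hspb2, 0.14 for Hspb3 and 0.12 for Hspb6, ifetroban in wild type 0.14 for Cryab, 0.29 for Hspb1, 0.12 for Hspb6 and 0.17 for Hspb7, and the interaction 0.0035 for Hspb6. With dSG-ife 1 counted as dSG-veh, Hspb3 under vehicle was 0.065, Hspb2 under ifetroban -0.0086, ifetroban in knockout -0.49 for Hspb1 and -0.060 for Hspb7, and the interaction -0.22 for Cryab, -0.36 for Hspb1, -0.094 for Hspb2 and -0.0021 for Hspb7. The negative-slope libraries alone gave -0.13 for Cryab, -0.22 for Hspb2 and -0.26 for Hspb7 under vehicle, and 0.25 for Cryab, 0.21 for Hspb2 and 0.25 for Hspb3 for ifetroban in knockout. The positive-slope libraries alone gave 0.15 for Cryab, 0.14 for Hspb1, 0.24 for Hspb6 and 0.32 for Hspb7 for ifetroban in wild type. Hspb2 under vehicle was -0.0041 with DESeq2 size factors, -0.0043 with the DESeq2 Wald test and -0.0090 with the stricter filter, Hspb6 under vehicle was 0.00023 with limma-voom, and the Hspb6 interaction was 0.0063 with the stricter filter.

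With the replicate number as a block, Hspb2 for ifetroban in knockout was 0.014, and no call among the members changed (Hspb1 over both treatments 0.72, edgeR adjusted p = 0.0538). The labels do not pair samples of the same number, and the correlations of their deviations ran from -0.062 to 0.50. The highest were those of the library labelled wt-veh 1 with dSG-ife 1 and of wt-veh 2 with dSG-ife 2 (0.33), which also share a slope set. In a group of 2 libraries the deviations mirror each other, so values for replicates 1 and 2 are not separate observations. Between wt-veh and wt-ife, for instance, both were 0.040.

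With a library left out in turn, the lowest and highest values under vehicle were -0.14 and 0.48 for Cryab, -0.22 and 0.30 for Hspb2, -0.10 and 0.060 for Hspb3, -0.37 and 0.38 for Hspb6, and -0.26 and 0.45 for Hspb7. Under ifetroban they were -0.0081 and 0.34 for Hspb2, -0.18 and 0.0082 for Hspb6, -0.030 and 0.35 for Hspb7, and -0.25 and 0.018 for Hspb8. For ifetroban in knockout they were -0.31 and 0.011 for Cryab, -0.14 and 0.51 for Hspb1, -0.31 and 0.038 for Hspb2, -0.32 and 0.0048 for Hspb3, and -0.022 and 0.13 for Hspb7. For ifetroban in wild type they were -0.45 and 0.15 for Cryab, -0.36 and 0.14 for Hspb1, -0.12 and 0.34 for Hspb3, -0.48 and 0.24 for Hspb6, -0.37 and 0.32 for Hspb7, and -0.24 and 0.033 for Hspb8. For the interaction they were -0.24 and 0.35 for Cryab, -0.011 and 0.67 for Hspb1, -0.089 and 0.40 for Hspb2, -0.45 and 0.014 for Hspb3, -0.43 and 0.29 for Hspb6, and -0.27 and 0.41 for Hspb7. Over both treatments they were -0.18 and 0.096 for Hspb6, -0.0026 and 0.27 for Hspb7, and -0.077 and 0.071 for Hspb8.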

Other observations

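Hyou1, Hspa5, Dnajc3 and Hsp90b1, chaperones of the endoplasmic reticulum, were highest in dSG-ife 2. Of all tested genes 10.5% had their highest value in that library. So did 4 of 15 genes in the Hsp70 system, 2 of 14 Hsp40 co-chaperones and 1 of 21 in the Hsp90 and chaperonin list. Hyou1 was at 108 CPM in dSG-ife 2 and at 39.8 to 64.3 CPM in the other 8 libraries. Hspa5, the main Hsp70 of this compartment, was at 859 CPM there and at 444 to 682 CPM elsewhere, and Dnajc3 at 90.6 CPM against 51.5 to 60.5 CPM. Hsp90b1, the Hsp90 of this compartment, was at 404 CPM in dSG-ife 2 and at 227 to 342 CPM elsewhere. Dnajb11 and Hspa13 were not highest there, at 46.1 CPM (50.4 in dSG-ife 1) and 20.5 CPM (20.7 in dSG-ife 3). Dnajb9 was highest there by little, at 58.7 CPM against 57.5 CPM in the library labelled wt-veh 1. Hspb1 in the same library was at 186 CPM, inside the range of the other knockout libraries. These genes were singled out after their values were seen.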
